A study of Mus musculus with 4 samples.

Results

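Acetylation of histone H3 on lysine 9 (H3K9ac), a chromatin mark found at active promoters and enhancers, was examined at 7 genes that encode platelet receptors, a platelet signalling protein and adhesion molecules of platelets, leukocytes and endothelium. They were chosen by gene symbol: P2ry1, F2r, Plek, Selp, Selplg, Icam1 and Pecam1, 7 of the 9615 genes of the table, and each had 1 row. The H3K9ac signal came from chromatin immunoprecipitation and sequencing (ChIP-seq) of leukaemic mouse bone marrow. The tg library came from marrow labelled Gfi1b(fl/fl), Nup98(tg) and MxCre(tg), the WT library from marrow labelled Gfi1b(fl/fl), Nup98(tg) and MxCre(wt). Both genotypes thus carried the NUP98/HOXD13 leukaemia transgene and floxed Gfi1b, and WT means the absence of Mx-Cre, a Cre recombinase under an interferon-inducible promoter that is active in many cell types. The labels give no age, no inducing treatment and no number of animals per library. With 1 H3K9ac library per genotype there was no test between genotypes, and no difference below can be set against a spread between replicates.

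Platelets are shed by megakaryocytes, which share a progenitor with red cells, and GFI1B is a transcriptional repressor needed in both lineages. ADP and thrombin activate platelets through G protein-coupled receptors, the signal passes through phospholipase C and protein kinase C, and P-selectin then moves from the alpha granules to the surface, where it binds PSGL-1 on leukocytes. Firm adhesion and passage of leukocytes through the vessel wall use immunoglobulin-type molecules such as ICAM-1 and PECAM-1.

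The read counts behind the values were low. The scaled values corresponded to totals of 163712 reads in tg and 309649 reads in WT. Whether these totals are all reads of a library or only those within probes (the regions over which the authors counted) is not given. The median gene with 1 probe held 11 reads in tg and 22 reads in WT. A floor of 3 reads was set for a count of 0, which equals 18.3 reads per 1000000 in tg and 9.69 in WT. The libraries also differed at the Y chromosome, whose 2 measured genes held 1 read in tg and 50 in WT. Gfi1b, the floxed gene, held 108 reads in tg and 12 in WT over 4 probes whose positions within the gene are not given, so that it does not check the deletion. Megakaryocyte identity could hardly be checked: of 29 listed platelet surface receptor genes 5 were measured. Such defining genes as Itga2b, Gp1ba, Gp9 and Pf4 were searched by symbol and had no values.

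The promoters of 5 of the genes are shown because H3K9ac is a promoter mark and because their CpG content differed. RefSeq promoters matched 5 of the 7 genes, without Selplg and Pecam1, so the CpG counts cover 2 of the 4 genes that were lower in tg. The sequences are those of GRCm38.p6, 250 bases before to 50 bases after the RefSeq gene start, on the gene's strand from 5′ to 3′, and capitals mark each CpG.
P2ry1: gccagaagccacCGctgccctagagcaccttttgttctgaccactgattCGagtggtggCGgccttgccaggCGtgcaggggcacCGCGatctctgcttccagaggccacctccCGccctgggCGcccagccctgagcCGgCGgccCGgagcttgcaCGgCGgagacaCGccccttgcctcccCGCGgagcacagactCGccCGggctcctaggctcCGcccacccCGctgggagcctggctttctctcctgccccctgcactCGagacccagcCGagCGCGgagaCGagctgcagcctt
F2r: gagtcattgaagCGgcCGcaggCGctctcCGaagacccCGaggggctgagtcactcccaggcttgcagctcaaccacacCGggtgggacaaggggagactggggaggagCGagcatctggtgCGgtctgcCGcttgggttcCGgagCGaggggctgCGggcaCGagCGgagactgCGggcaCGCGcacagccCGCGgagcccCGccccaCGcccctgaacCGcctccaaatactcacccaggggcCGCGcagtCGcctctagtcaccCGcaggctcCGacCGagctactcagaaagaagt
Icam1: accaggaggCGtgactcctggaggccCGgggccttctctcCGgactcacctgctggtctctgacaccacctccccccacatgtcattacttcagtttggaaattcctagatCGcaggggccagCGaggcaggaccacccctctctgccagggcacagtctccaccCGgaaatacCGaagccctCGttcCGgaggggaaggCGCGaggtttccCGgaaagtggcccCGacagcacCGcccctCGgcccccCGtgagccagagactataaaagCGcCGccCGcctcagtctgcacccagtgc
Plek: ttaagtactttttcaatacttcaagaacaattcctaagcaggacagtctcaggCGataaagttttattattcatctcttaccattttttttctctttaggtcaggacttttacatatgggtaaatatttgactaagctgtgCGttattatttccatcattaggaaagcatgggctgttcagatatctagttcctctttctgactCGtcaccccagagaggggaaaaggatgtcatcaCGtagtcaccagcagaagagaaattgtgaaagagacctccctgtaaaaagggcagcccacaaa
Selp: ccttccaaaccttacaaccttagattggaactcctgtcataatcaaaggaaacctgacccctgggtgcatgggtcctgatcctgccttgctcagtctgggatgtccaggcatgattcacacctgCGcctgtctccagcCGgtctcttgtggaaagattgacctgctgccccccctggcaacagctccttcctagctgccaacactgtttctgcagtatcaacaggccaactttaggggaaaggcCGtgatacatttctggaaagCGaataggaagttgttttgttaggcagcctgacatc
They lie at chr3:61002535-61002834 (P2ry1, plus strand), chr13:95618417-95618716 (F2r, minus strand), chr9:21015690-21015989 (Icam1, plus strand), chr11:17008669-17008968 (Plek, minus strand) and chr1:164115014-164115313 (Selp, plus strand). P2ry1 had 25 CpGs, F2r 28 and Icam1 19, and these genes had the higher level in tg. Plek and Selp had 4 CpGs each, and they had the lower level in tg. The promoters of genes in the table held a median of 21 CpGs. Among all measured genes with a single RefSeq promoter, both directions occurred in both classes: of 221 genes with at most 4 CpGs, 24.9% were higher by 2-fold or more in tg and 32.6% lower by as much, and of 3428 genes with at least 19 CpGs, 14.7% were higher and 13.97% lower. The bounds of 4 and 19 CpGs were set after the values of the 5 promoters were seen.

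In all, 5 motifs were searched in these windows on both strands, by exact letters. The GATA words AGATAA and TGATAA and the GFI1 family word AAATCA had no match in any of the 5 windows, and they occur in 10.1% and 7.72% of the 8545 promoters of genes in the table, and in 18.6% and 14% of all 32851 promoters of the same length. Icam1 held 1 match to the NF-kB word GGAAATTCC, which begins 153 bases before the gene start and occurs in 0.281% of promoters of genes in the table and 0.317% of all. F2r held 1 match to the RUNX word TGTGGT on the opposite strand, beginning 178 bases before the start (12.1% and 16.8%). Selp held 2 matches to the ETS words AGGAAG and CGGAAG, which begin 64 bases before and 19 bases after the start (56.1% and 46.5%). No matches overlapped. A match is a string of letters and does not show a bound factor.

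All 7 genes differed at least 2-fold between the libraries by the deposited log2 values, 3 higher and 4 lower in tg. Of all genes measured, 16.5% were higher by at least 2-fold in tg and 15.8% lower by at least 2-fold. These shares are also the background for the counts in lists and neighbourhoods below. The 7 genes were picked with their ratios known from an earlier look at these data, so their count is a description and nothing is read from it. Their log2 ratios of tg over WT spanned -3.33 to 2.66, against a median of 0.05 and a standard deviation of 1.27 over all genes. Pooled over the 7 genes, 66 reads in tg stood against 167 in WT, a 1.34-fold lower scaled level in tg (95% interval 1.00 to 1.81, counting error only). Plek held 83 of the WT reads. Without it the sum was 1.26-fold higher in tg (0.883 to 1.79), so that the pooled direction rested on Plek.

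**Figure D1:**
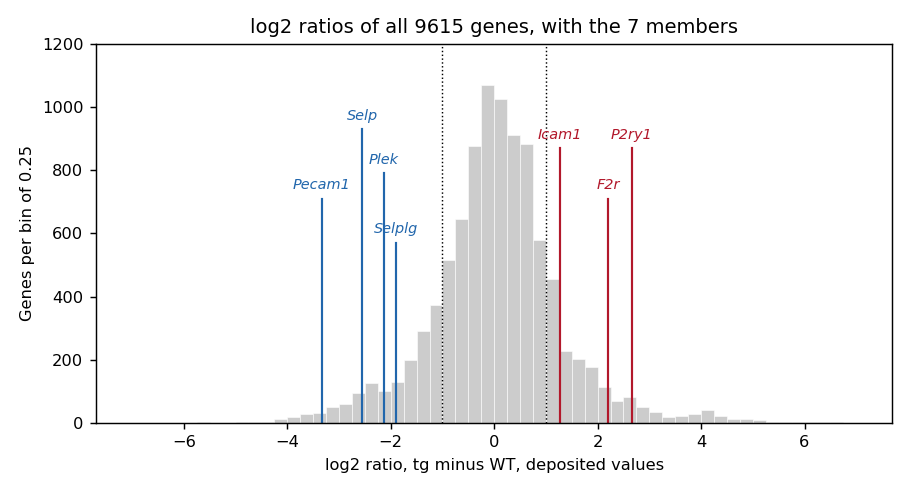
Histogram of the log2 ratio of tg over WT of all 9615 genes (bins of 0.25), with a line for each of the 7 genes and dotted lines at 2-fold. Icam1 lies nearest the 2-fold line on the higher side (1.27) and Pecam1 farthest out on the lower side (-3.33).

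**Figure D2:**
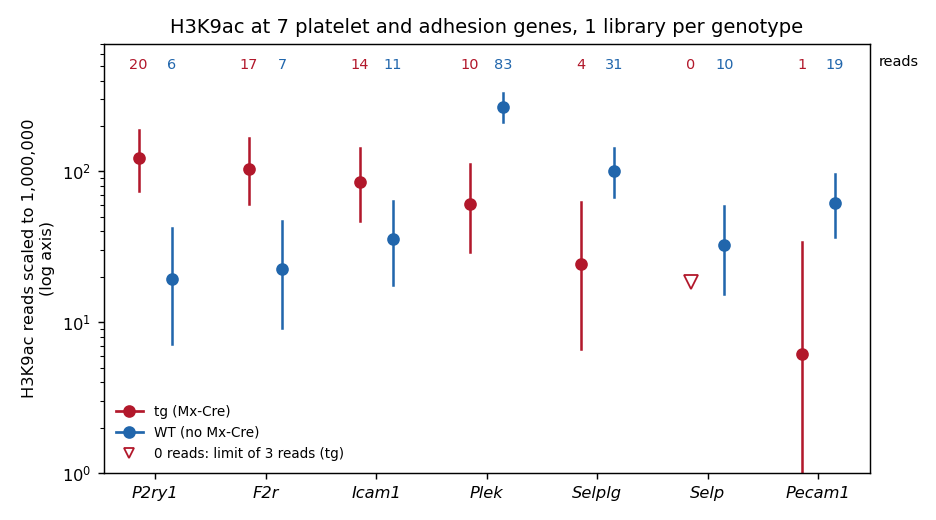
H3K9ac reads scaled to 1000000 (log axis) for the 7 genes in the tg library (red, left) and the WT library (blue, right), with exact 95% binomial intervals for counting error and the reads behind each point at the top. Selp has 0 reads in tg and is drawn at the floor of 3 reads, and the lower end of the tg interval of Pecam1 (1 read) lies below the axis.

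The 2 G protein-coupled receptor genes had more H3K9ac in the tg library. P2ry1 (ENSMUSG00000027765, chromosome 3, 61002795 to 61008979, GRCm38) encodes the ADP receptor P2Y1, which couples to Gq and starts calcium release and shape change in platelets. Its single probe held 20 reads in tg and 6 reads in WT, or 122 reads per 1000000 in tg and 19.4 in WT, a 6.30-fold higher level in tg (95% interval 2.44 to 19.2). Of the 9615 genes, 302 had a higher log2 ratio than the 2.66 of P2ry1.

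F2r (ENSMUSG00000048376, chromosome 13, 95601804 to 95618459) encodes the thrombin receptor PAR1, which mediates thrombin signalling in human platelets, whereas mouse platelets use PAR3 and PAR4. It held 17 reads in tg and 7 reads in WT, or 104 reads per 1000000 in tg and 22.6 in WT, and was 4.59-fold higher in tg (1.81 to 13.1). Its log2 ratio of 2.20 was exceeded by 428 genes. The intervals of P2ry1 and F2r overlap over most of their length, so the reads do not order them. The genes of PAR3 and PAR4, F2rl2 and F2rl3, were searched by symbol and had no values.

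The wider family of P2Y and protease-activated receptors contributed 1 further measured gene of 12 listed. P2ry14, the receptor gene for UDP-glucose, held 2 reads in tg and 16 in WT, and its interval includes 1 (4.23-fold lower, 0.994 to 37.9). Among the other platelet surface receptor genes, Htr2a, the serotonin receptor gene, held 16 reads in tg and 0 in WT. Against a floor of 3 reads in WT Htr2a was 10.1-fold higher, and the 95% interval begins at 7.29-fold higher. Cd9, a tetraspanin gene, held 1 read in tg and 8 in WT (4.23-fold lower, 0.567 to 188), and Fcer1g, the Fc receptor gamma chain that signals for glycoprotein VI, 7 reads in tg and 21 in WT. The list as a whole had 3 of 5 genes higher by 2-fold or more and 1 lower, with a median log2 ratio of 2.20, but 2 of the 3 higher genes are P2ry1 and F2r themselves. Without them 1 of 3 genes was higher and 1 lower, and the median was -0.67.

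Plek had less H3K9ac in tg and held the most reads of the 7 genes in WT. It encodes pleckstrin, the major protein kinase C substrate of platelets, which is also abundant in leukocytes. Its single probe (ENSMUSG00000020120, chromosome 11, 16971206 to 17052381) held 10 reads in tg and 83 reads in WT, or 61.1 reads per 1000000 in tg and 268 in WT, a 4.39-fold lower level in tg (2.27 to 9.49). In the WT library 95.7% of genes with 1 probe held fewer reads than Plek, and in the tg library 41.5% did. The gene model of the table extends 43663 bases beyond the RefSeq end of Plek on the side of its start, and whether its probe covers the RefSeq promoter is not given.

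Around Plek in the platelet signalling list, 6 of 25 measured genes were lower in tg by 2-fold or more and 2 were higher (median log2 ratio -0.23). Over all genes 15.8% were lower and 16.5% higher by as much. Syk, the tyrosine kinase gene of immunoreceptor signalling, was 5.68-fold lower on 4 reads in tg and 43 in WT (2.07 to 21.8). The guanine nucleotide exchange factor gene Vav3 (3 reads in tg and 27 in WT) was 4.76-fold lower (1.46 to 24.5) and the calcium channel gene Orai1 (4 reads in tg and 27 in WT) 3.57-fold lower (1.24 to 14.04). Plcg2, a phospholipase C gene, had only 1 read in tg and 9 in WT (4.76-fold lower, 0.659 to 209).

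Gnaq encodes the Gq alpha subunit to which P2Y1 and PAR1 couple. It held 10 reads in tg and 49 in WT and was 2.59-fold lower in tg (1.30 to 5.74), while P2ry1 and F2r were higher. Gna13, the gene of the G13 subunit to which PAR1 also couples, had 22 reads in tg and 49 in WT with a ratio of 0.849 (0.489 to 1.43). The higher members of the list were Prkcd, a protein kinase C gene, with 17 reads in tg and 16 in WT (2.01-fold, 0.955 to 4.25), and Itpr2, an IP3 receptor gene, with 6 reads in tg and 3 in WT (3.78-fold, 0.808 to 23.4). Both intervals include 1.

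P-selectin and its ligand had less H3K9ac in tg, on few reads. Selp (ENSMUSG00000026580, chromosome 1, 164115264 to 164150026) encodes P-selectin, stored in platelet alpha granules and endothelial Weibel-Palade bodies. It held 0 reads in tg and 10 reads in WT, or 32.3 reads per 1000000 in WT. Against a floor of 3 reads in tg the level was 1.76-fold lower, which leaves out the counting error of the 10 WT reads. The 95% interval begins at 1.19-fold lower. The deposited log2 ratio of -2.55 rests on 0.9 reads entered for the empty probe, and with the floor in its place Selp was no longer 2-fold lower. The same read counts in both libraries were found at 11 other genes with 1 probe.

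Selplg (ENSMUSG00000048163, chromosome 5, 113817798 to 113830501) encodes PSGL-1, the mucin of leukocytes that binds P-selectin. It was the only one of the 7 genes with 2 probes. They held 2 and 2 reads in tg and 9 and 22 reads in WT, so each WT probe exceeded each tg probe also after scaling. Summed, 4 reads stood against 31, a 4.10-fold lower level in tg (1.45 to 16.0). The probes of 1 gene in 1 library are not replicates of the genotype. The RefSeq model of Selplg reaches 113832528, beyond the gene model used here, and the positions of the probes are not given.

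Genes of selectin ligand synthesis, among them enzymes that build the selectin-binding glycans on PSGL-1, were covered more completely, with 15 of 18 listed genes measured. In tg 5 of these lay beyond 2-fold on the higher side and 2 on the lower side (median log2 ratio 0.72). Reads summed per gene, available for 14, put 3 on the higher and 2 on the lower side. St3gal6, a sialyltransferase gene, was 5.67-fold higher on 42 reads in tg and 14 in WT (3.04 to 11.3), and the galactosyltransferase gene B4galt1 3.03-fold higher on 64 reads in tg and 40 in WT (2.01 to 4.61). St3gal4 was 2.07-fold higher (1.24 to 3.49). Cmas, which activates sialic acid, had a log2 ratio of 1.58 but a summed fold of 1.76 (1.12 to 2.76), and Gne, which makes its precursor, 1.13 and 1.51 (0.847 to 2.68). Lower were the fucosyltransferase gene Fut4, 5.46-fold on 3 reads in tg and 31 in WT (1.70 to 27.9), and C1galt1c1, a chaperone of core 1 glycan synthesis, with 5 reads in tg and 19 in WT (2.01-fold, 0.726 to 6.88).

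The 2 immunoglobulin superfamily genes went in opposite directions. Icam1 (ENSMUSG00000037405, chromosome 9, 21015960 to 21028797) encodes ICAM-1, the counter-receptor of the beta 2 integrins and a known target of inflammatory cytokines. It held 14 reads in tg and 11 reads in WT, or 85.5 reads per 1000000 in tg and 35.5 in WT, and was 2.41-fold higher in tg. Its interval of 1.02 to 5.86 nearly reaches equality, and 4 other genes with 1 probe had the same counts. Itgb2, the beta 2 integrin subunit gene, had 5 reads in tg and 10 in WT (ratio 0.946, 0.254 to 3.04).

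Pecam1 (ENSMUSG00000020717, chromosome 11, 106654217 to 106750628) encodes PECAM-1, or CD31, an inhibitory and homophilic adhesion receptor of platelets, leukocytes and endothelium. It held 1 read in tg and 19 reads in WT, or 6.11 reads per 1000000 in tg and 61.4 in WT, a 10.05-fold lower level in tg with an interval of 1.60 to 417. Its log2 ratio of -3.33 was the lowest of the 7, and 85 genes of the table were lower still. With 1 read the size of the difference is loosely bounded. In tg 1.27% of genes with 1 probe held fewer reads than Pecam1, which here means 0 reads. At its higher coordinate the gene model used here extends 35347 bases beyond the RefSeq model of Pecam1. Whether its probe covers the RefSeq promoter is not given.

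**Figure D3:**
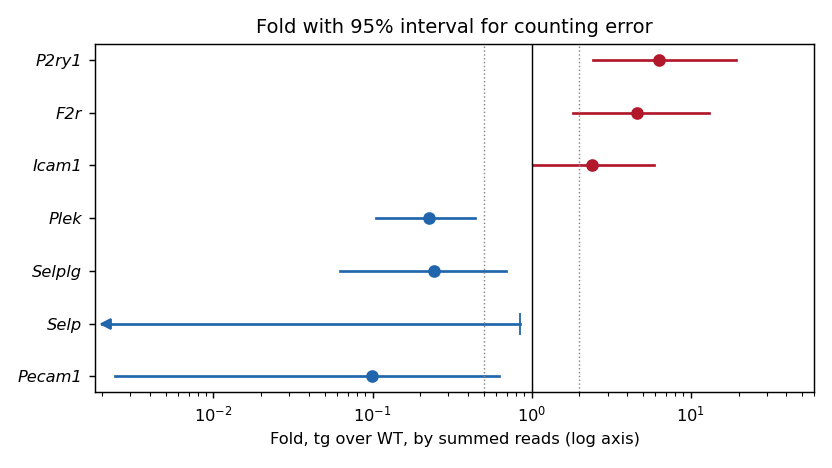
Fold of tg over WT (log axis) from reads summed over probes, with exact conditional binomial 95% intervals for counting error; the solid line marks equality and the dotted lines 2-fold. P2ry1, F2r and Icam1 lie above 1 and Plek, Selplg and Pecam1 below, and Selp, with 0 tg reads, has only an upper bound, 0.844.

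By these intervals, 3 of the 7 genes lay above equality and 4 below, and 0 of 7 intervals included 1. Over the 9490 genes with recovered reads, 12.8% had an interval above 1 and 12.7% below. The 7 genes were picked with their ratios known, so nothing is read from their count. Every gene with 1 probe held at least 9 reads over both libraries. With 0 reads in tg, the interval of Selp was therefore bound to lie below 1. Only for P2ry1 and Plek did the whole interval lie beyond 2-fold. For F2r, Selplg, Selp, Icam1 and Pecam1 the interval also held differences of less than 2-fold.

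Leukocyte and endothelial adhesion genes as a list had 4 of 17 measured genes beyond 2-fold on the higher side in tg and 6 on the lower side (median log2 ratio -0.08), and without Selp, Selplg, Icam1 and Pecam1 3 of 13 were higher and 3 lower. The E-selectin ligand gene Glg1 was 6.34-fold lower (4 reads in tg and 48 in WT, 2.32 to 24.2) and the integrin alpha V gene Itgav 3.30-fold lower (4 reads in tg and 25 in WT, 1.14 to 13.1). Higher were Icam4, which encodes the Landsteiner-Wiener blood group protein of red cells (4.95-fold, 2.54 to 10.2), Cd24a, which encodes a small mucin-type P-selectin ligand (3.65-fold on 85 reads in tg and 44 in WT, 2.51 to 5.39), and Spn, the CD43 gene (2.27-fold, 0.899 to 5.86).

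Granule and secreted platelet genes were measured at 7 of 18 listed, with 0 beyond 2-fold on the higher side in tg and 3 on the lower side (median log2 ratio -0.97, or -0.82 with Selp at its floor). Besides Selp these were Angpt1, the angiopoietin 1 gene, 3.54-fold lower on 10 reads in tg and 67 in WT (1.81 to 7.72), and F13a1, the factor XIII A subunit gene, with 3 reads in tg and 18 in WT (3.17-fold lower, 0.926 to 16.8). Vwf, the von Willebrand factor gene, had 7 reads in tg and 16 in WT (ratio 0.827, 0.288 to 2.13).

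All 18 listed megakaryocyte transcription factor genes were measured, with 7 higher in tg by 2-fold or more and 3 lower (median log2 ratio 0.43). By summed reads, available for 13 of them, 4 were higher and 2 lower. Zfpm1, the gene of the GATA1 cofactor FOG1, was 9.79-fold higher on 119 reads in tg and 23 in WT (6.22 to 16.0), and Gata1 held 13 reads in tg and 1 in WT. Nfe2, which drives late megakaryocyte maturation, had 103 reads in tg and 99 in WT, a 1.97-fold higher summed level (1.48 to 2.62; deposited log2 ratio 1.31), and Ikzf5 was 2.23-fold higher (1.11 to 4.52). Tal1 and Lmo2, partners of GATA1, had log2 ratios of 3.59 and 3.08. The remaining higher gene was Gfi1b, with a log2 ratio of 3.84 on 108 reads in tg and 12 in WT. Gata1 is counted in the erythroid list below as well, and GFI1B is needed in both lineages. The lists are therefore not independent, and the higher genes here do not tell megakaryocytes from red cell precursors. Fli1, an ETS factor gene of megakaryocytes and leukocytes, was 5.23-fold lower on 10 reads in tg and 99 in WT (2.73 to 11.3), Mkl1, a coactivator of SRF, 2.69-fold lower (1.43 to 5.48), and Etv6 had a log2 ratio of -1.06 over 7 probes.

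**Figure D4:**
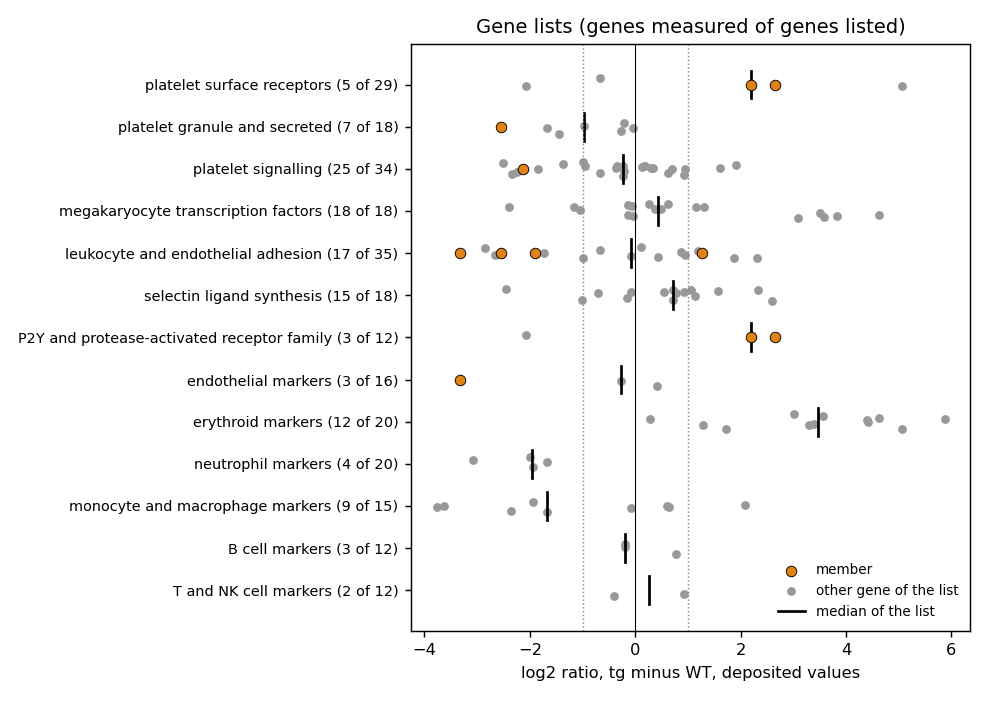
log2 ratio of tg over WT of the measured genes of each list, with the 7 members in orange, other genes in grey and the list median as a bar; dotted lines mark 2-fold. The erythroid list lies to the right (median 3.48) and the neutrophil and monocyte lists to the left (-1.97 and -1.67), while the adhesion list is spread over both sides (-0.08).

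Markers of other marrow cells differed between the same libraries. The erythroid list had 11 of 12 measured genes beyond 2-fold on the higher side in tg (493 summed reads in tg, 193 in WT), with Epor, Rhag and Alas2 at 0 reads in WT. Of the neutrophil list, 4 of 20 genes were measured and all 4 were lower in tg (8 reads in tg, 82 in WT). Of 9 monocyte and macrophage genes 5 were lower and 1 higher (74 reads in tg and 619 in WT). Irf8 held 407 of these WT reads, and the higher gene was Csf1r (9 reads in tg and 4 in WT, 4.26-fold, 1.19 to 18.9). Lyz2 is counted in both lists. The neutrophil and monocyte lists had 0 genes at 0 reads in tg. Selplg, Plek, Selp and Pecam1 were lower alongside the neutrophil and monocyte lists, and P2ry1, F2r and Icam1 were higher alongside the erythroid list. Endothelial markers were hardly measured: of 16 listed, only Pecam1, Vwf (log2 ratio -0.27) and Eng (0.42) had values, with 20 reads in tg and 52 in WT. The B cell list had 3 of 12 genes and the T and NK cell list 2 of 12, with 0 genes beyond 2-fold in either. The part of these cell types in the values of the 7 genes was not tested. In bulk chromatin, fewer cells that carry a mark and less of the mark per cell cannot be told apart.

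The neighbourhood of each gene was examined within 500 kb. None of the 7 genes had the same values as another gene within 100 kb, the sign of a shared probe. Beyond that bound Eif3g, 117 kb from Icam1, had the same counts as Icam1, 14 reads in tg and 11 in WT. Icam4 begins 576 bases after the end of Icam1. Its 2 probes held 16 and 18 reads in tg and 6 and 7 reads in WT, different counts from those of Icam1, and both genes were higher in tg. On the other side Mrpl4, 7.13 kb away, had 13 reads in tg and 27 in WT (ratio 0.911, 0.431 to 1.83). Over all 26 neighbours of Icam1, 6 were higher by 2-fold or more and 4 lower, against 16.5% and 15.8% of all genes.

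Of the 8 neighbours of Selp, 2 were lower by 2-fold or more, among them Kifap3 (49 reads in tg and 277 in WT, 2.99-fold lower), and 2 were higher. Slc19a2, 99.0 kb away, had 21 reads in tg and 23 in WT (ratio 1.73, 0.909 to 3.26). Around Plek, 0 of 7 neighbours were beyond 2-fold in either direction, and Fbxo48, 16.4 kb away, had 19 reads in tg and 19 in WT (ratio 1.89, 0.948 to 3.78). Ppp3r1, 107 kb away on the other side, had 33 reads in tg and 76 in WT (0.821, 0.529 to 1.25). None of the 5 neighbours of Selplg was beyond 2-fold, with Coro1c at 11.9 kb having 19 reads in tg and 35 in WT (1.03, 0.555 to 1.85) and Sart3 at 46.1 kb 17 reads in tg and 50 in WT (0.643, 0.348 to 1.13).

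P2ry1 had 3 measured neighbours. Mbnl1, 373 kb away, had 48 reads in tg and 67 in WT (ratio 1.36, 0.915 to 1.99), and Rap2b, 356 kb away on the other side, 2 reads in tg and 19 in WT, 5.02-fold lower in tg (1.21 to 44.5), against the direction of P2ry1. The third neighbour had the same values as Rap2b. Iqgap2, 8.72 kb from F2r, had 28 reads in tg and 53 in WT and a summed ratio of 0.999 (0.609 to 1.61), although its deposited log2 ratio was 0.90. On the other side Aggf1, 226 kb away, had 29 reads in tg and 29 in WT (1.89, 1.09 to 3.28). Gm885, 575 bases from the Pecam1 gene model, had 8 reads in tg and 34 in WT and was 2.25-fold lower (1.02 to 5.62). On the side of Gm885 that model extends 35347 bases beyond the RefSeq model of Pecam1, so Gm885 lies farther from the RefSeq gene. Tex2, 40.8 kb away on the other side, had 31 reads in tg and 46 in WT (1.27, 0.781 to 2.05). Of the 23 neighbours of Pecam1, 5 were lower by 2-fold or more and 2 higher.

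**Figure D5:**
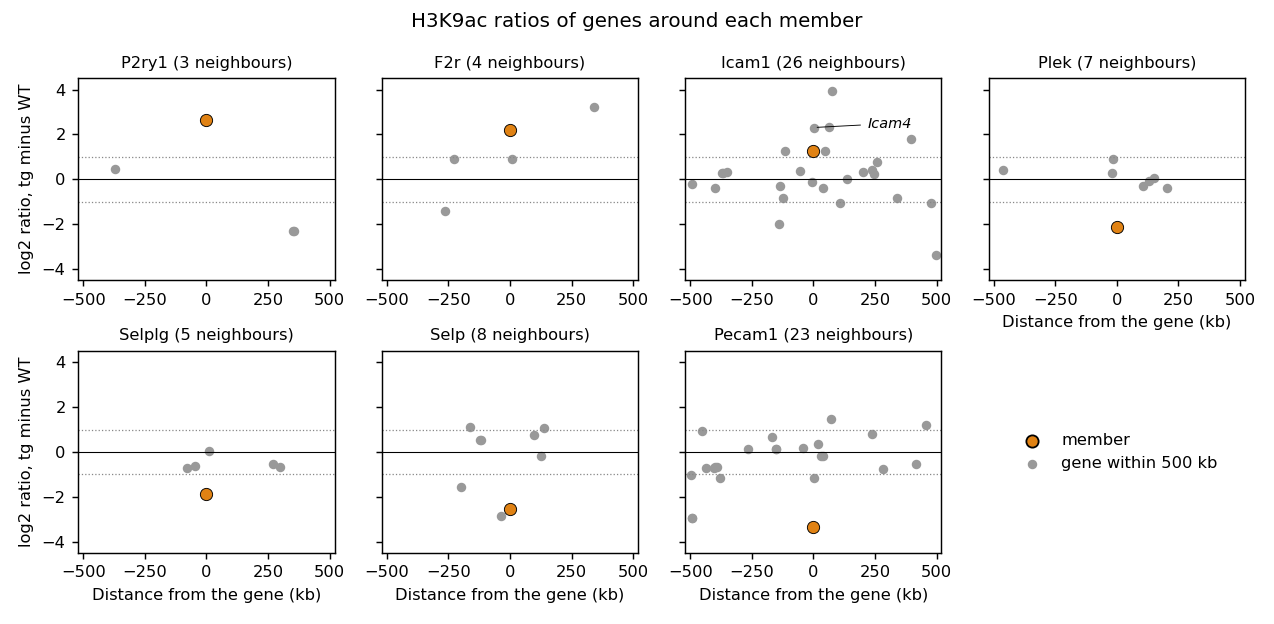
log2 ratio of tg over WT (deposited values) of the genes within 500 kb of each of the 7 genes, by distance from the gene in kb; orange is the gene itself, grey its neighbours, dotted lines 2-fold. Plek, Selplg and Pecam1 lie below all their neighbours, while Icam4 stands beside Icam1.

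The genes with the pair of levels nearest to each member, by Euclidean distance over the log2 levels of the 2 libraries and among genes with as many probes were as follows. Car3 (19 reads in tg and 6 in WT) and Ccdc104 (22 in tg, 6 in WT) lay nearest to P2ry1, Timm50 and Ube2o (16 reads in tg and 7 in WT each) to F2r, and Tiparp (10 in tg, 82 in WT) and Rrbp1 (11 in tg, 81 in WT) to Plek. Polr3e had the counts of Pecam1, 1 in tg and 19 in WT, with Csf2ra (1 in tg, 20 in WT) next. Ralgps1 (4 in tg, 29 in WT) and Casp8ap2 (5 in tg, 28 in WT) were nearest to Selplg. Selp had 6 named genes at distance 0, among them Birc3 and Camk1, and Icam1 had 4, among them Acot13 and Eif3g. With 2 libraries such likeness rests on 2 values per gene.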

How the data were processed

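H3K9ac ChIP-seq and rabbit IgG controls were made from leukaemic mouse marrow, 4 samples in 4 groups of 1; only the H3K9ac libraries had columns in the table, matched by library code, and the IgG background was not analysed here. Per the labels' protocols, red cells were lysed and cells fixed in 1% formaldehyde. The submitters' processing notes name CASAVA 1.8.2, BWA, SAMtools and FastQC, with builds mm10 and GRCm38; no source used here gives probe placement or duplicate removal. The authors' deposited values are the mean and standard deviation over a gene's probes of log2 reads scaled to 1000000, a scale worked out from the values: for all 7423 genes with 1 probe both values were whole reads within 0.01 of a read, with 0 entered as 0.9. Each such gene held at least 9 reads over both libraries, so genes with fewer are not represented.

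Whole reads per probe were recovered for 9490 genes (98.7%, those with 1 to 4 probes and 1 solution). Ratios are differences of deposited log2 values, tg over WT. Folds use summed reads over the total behind the scaling of each library. Their 95% intervals are exact (Clopper-Pearson, conditional on the pooled reads). Intervals and floors (3 reads) cover counting error only, since PCR copies cannot be told from separate molecules. The 2-fold bound is a rule of size. The recovery was tested on simulated data. Python 3.11.15, NumPy 2.4.6, pandas 2.3.3, SciPy 1.17.1 and Matplotlib 3.10.9 were used.

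Members, the 13 gene lists and alternatives were chosen with earlier results of these data known. Named were the members, list genes beyond 2-fold (otherwise the 2 with the highest WT level), the 2 genes nearest in level and the nearest gene on each side; other named genes were picked once their values were known. Some genes that the rule names are left out here. Alternatives were summed reads, centring on the median gene, folds of 1.5 and 3, 3 reads for 0, the tallest probe, genes at or above the median level, and neighbours with identical values taken once.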

Additional observations from a re-analysis of the deposited data

How the results depend on the processing

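The counts of 3 higher and 4 lower genes among the 7 were the same with summed reads, centring on the median gene and a fold of 1.5. With a fold of 3 they were 2 and 4, Icam1 dropping out, and with 3 reads in place of 0 they were 3 and 3, Selp dropping out. All 28 recomputed log2 ratios of the 7 genes kept their sign and lay inside the counting interval. Over all genes, 1586 higher and 1522 lower became 2760 and 2445 with a fold of 1.5 and 816 and 768 with a fold of 3. Among the 4812 genes at or above the median level the counts were 493 and 519. These are 10.2% and 10.8%, against 16.5% and 15.8% over all genes. Entering 3 reads for 0, added after seeing the data, gave 1586 and 1483 over all genes. Of 26 list counts 4 changed with summed reads, 2 of them by more than 1.5 times: megakaryocyte transcription factors higher in tg were 4 of 13 genes with recovered reads, against 7 of 18, and selectin ligand synthesis 3 of 14, against 5 of 15. The others were megakaryocyte transcription factors lower in tg (2 of 13, against 3 of 18) and adhesion genes lower in tg (7 of 17, against 6 of 17). Among the megakaryocyte factors Tal1, Lmo2 and Etv6 left the counts because their reads were not recovered. Only Nfe2 fell below 2-fold by its summed reads. No list median of 13 changed sign. No paired analysis was possible because each genotype had 1 H3K9ac library, and for the same reason no replicate could be left out. Low counts limit Selp, Pecam1 and Selplg most, with 0, 1 and 4 reads in tg.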
